A study of Homo sapiens with 6 samples.

Results

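Aminoacyl-tRNA synthetases are the enzymes that join each amino acid to its tRNA, and their transcripts were compared between H358 cells with RBM47 knockdown and H358 cells with control knockdown. H358 is an epithelial line derived from a human lung cancer, and RBM47 is an RNA-binding protein. RBM47 was knocked down with lentiviral short hairpin RNAs, and each group held 3 stranded mRNA libraries that the series describes as biological triplicates. The sources used here give no hairpin sequence, hairpin number, time after infection or vector of the control. A fixed list of 39 symbols, out of 57150 genes in the deposited table, defined the set. It holds 20 genes of cytosolic enzymes or their subunits, 16 genes of mitochondrial enzymes and 3 genes of scaffold proteins. Each symbol had a single row, and all 39 genes had a mean of at least 1 FPKM, the level needed to enter the test. FPKM is the number of fragments per length of transcript, scaled for the depth of the library.

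Cells translate in both the cytosol and the mitochondria, and most amino acids have a separate nuclear gene for the enzyme of each compartment. GARS and KARS are exceptions, since each encodes a cytosolic and a mitochondrial form of its enzyme. Glutamine has no second enzyme of this kind, because mitochondria charge its tRNA by another route. Part of the cytosolic enzymes are bound in the multisynthetase complex, held together by AIMP1, AIMP2 and EEF1E1. Uncharged tRNA activates the kinase GCN2, which leads to translation of the transcription factor ATF4, and genes of several cytosolic synthetases are known targets of ATF4.

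The targeted gene RBM47 had 12.0, 13.4 and 13.5 FPKM after RBM47 knockdown, against 85.2, 92.4 and 87.9 FPKM after control knockdown. Of its control level 14.6% was left (-2.68 on the log2 scale with an SE of 0.06, adjusted p = 2.04e-06 in limma). A two-sided exact permutation test returned 0.1, which no comparison of 3 with 3 libraries can go below. Total FPKM per library ran from 651951 to 673552. The number of fragments behind them is unknown. Low values put the depth used in the scaling of RBM47 knockdown replicates 2 and 3 at 1.03 and 1.05 times that of replicate 1. For the control libraries it was 1.09, 1.08 and 1.16 times. All 8 markers of an epithelial lung line were expressed, with a summed level of 3471 to 3566 FPKM after RBM47 knockdown and 4096 to 4383 FPKM after control knockdown. Of those 8 genes, 6 were lower in the knockdown, against 6.34% of all 14419 tested genes (limma, adjusted p under 0.05). Of the 6 fits without 1 library, KRT7 and KRT8 kept the call in 6, CDH1 and KRT18 in 4, KRT19 in 3 and ELF3 in none. Among markers of other cell types, 2 of 7 fibroblast genes (COL1A1 and LUM), 1 of 7 leukocyte genes (CD68) and 1 of the 3 endothelial genes matched by symbol (KDR; 4 were listed) reached a mean of 1 FPKM. The summed levels were 26.8 to 35.1 FPKM in the knockdown and 32.5 to 35.9 FPKM in the control libraries for fibroblast genes. For leukocyte genes they were 24.9 to 32.6 FPKM in the knockdown and 33.1 to 36.3 FPKM in the control libraries, and for endothelial genes 1.501 to 1.73 FPKM in the knockdown and 1.89 to 2.33 FPKM in the control libraries. THY1 and HBB were listed at 0 in all 6 libraries. The part of these marker differences in the results below was not tested.

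Transcripts of 9 of the 20 cytosolic synthetase genes were lower in the RBM47 knockdown, whereas no mitochondrial synthetase passed the test in either direction. Among the 20 cytosolic genes, 9 were called lower and none higher, where 6.34% of all tested genes were called lower and 5.10% higher (limma on log2(FPKM + 1), adjusted p under 0.05; 11.4% in all). The 9 were AARS, SARS, NARS, WARS, VARS, FARSA, GARS, CARS and MARS, at 72.6 to 86.7% of their control mean. In 12 of the 20 all knockdown values lay under all control values, as they did in 16.8% of all tested genes. The opposite order was found in 1 of the 20 and in 17.3% of all tested genes. The fold change was negative for 15 of the 20, against 48.8% of all tested genes. The median log2 fold change was -0.20 for the cytosolic genes and 0.0081 for the mitochondrial genes, beside 0.0061 for all tested genes. The members were picked as a family and not as a random draw, so no test was made of the family as a whole or of the difference between the compartments. In bulk RNA, a lower level in every cell cannot be told apart from loss in part of the cells.

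The summed level of the 20 cytosolic transcripts was 2021 ± 45.6 FPKM in the knockdown and 2338 ± 25.4 FPKM in the control libraries (SD, n = 3 each). The single sums were 2017, 1977 and 2068 FPKM after RBM47 knockdown and 2367, 2327 and 2321 FPKM after control knockdown. The groups did not overlap, and the knockdown mean was 86.4% of the control mean. The 16 mitochondrial transcripts summed to 215.8 ± 1.98 FPKM in the knockdown and 222.0 ± 1.61 FPKM in the control libraries (97.2% of control). These sums were 218, 215.0 and 214 FPKM in the knockdown and 221, 221 and 224 FPKM in the control libraries, without overlap as deposited. As a share of total FPKM the mitochondrial sums overlapped, at 0.0328 to 0.0332% in the knockdown and 0.0330 to 0.0338% in the control libraries, whereas the cytosolic shares did not, at 0.301 to 0.317% in the knockdown and 0.345 to 0.362% in the control libraries. How many cytosolic genes were called depended on having all 6 libraries. With RBM47 knockdown replicate 1, 2 or 3 left out the number was 5, 3 or 7, and with control knockdown replicate 1, 2 or 3 left out it was 4, 5 or 3. No fit turned the direction of any of the 9, but FARSA, GARS, MARS, VARS and WARS also lost their calls with no filter on low values and in limma without trend.

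**Figure D1:**
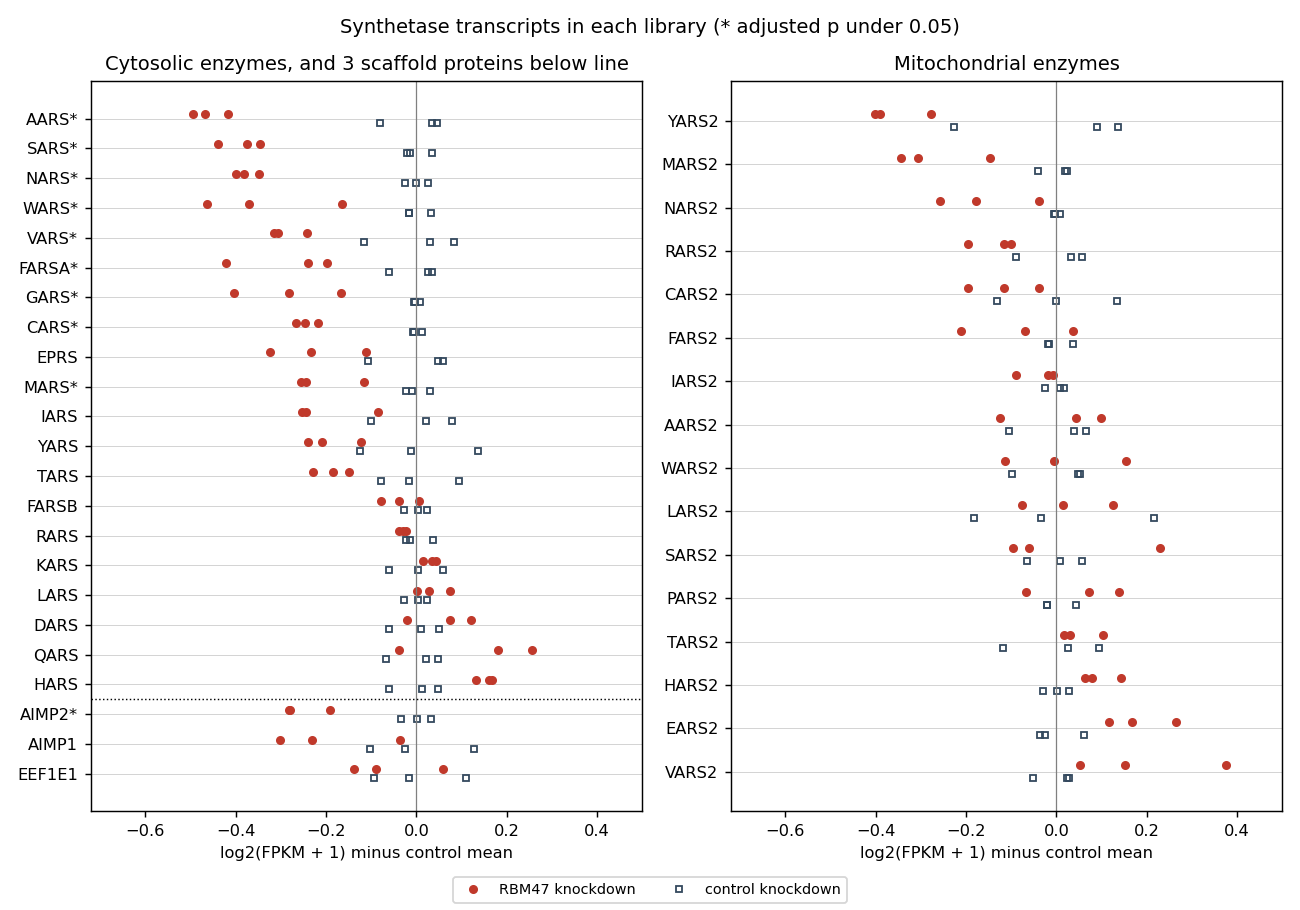
Levels of the 39 genes in each library on the log2(FPKM + 1) scale, relative to the mean of the control libraries, with filled circles for RBM47 knockdown and open squares for control knockdown. Knockdown values lie left of all control values in 12 of 20 cytosolic genes and in 4 of 16 mitochondrial genes. The same holds for 16.8% of all tested genes. Asterisks mark an adjusted p under 0.05 in limma.

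The clearest decreases belonged to 3 enzymes that work outside the multisynthetase complex, AARS, SARS and NARS. AARS, the alanine enzyme (ENSG00000090861, chromosome 16, locus entry 70286198 to 70323446 in hg19), was at 152, 144 and 147 FPKM in the knockdown and at 209.8, 192 and 208 FPKM in the control libraries. SARS, the serine enzyme (ENSG00000031698, chromosome 1, 109756540 to 109780791), was at 183, 172 and 179.9 FPKM in the knockdown and at 239, 230.0 and 231 FPKM in the control libraries. NARS, the asparagine enzyme (ENSG00000134440, chromosome 18, 55267888 to 55289445), was at 92.7, 93.9 and 96.1 FPKM in the knockdown and at 125, 123 and 120.4 FPKM in the control libraries. In each of these genes the highest knockdown library lay far under the lowest control library. AARS fell to 148 ± 4.03 FPKM, against 203 ± 9.72 FPKM in the control (SD, n = 3 each; log2 fold change -0.46, SE 0.05, adjusted p = 0.00246 in limma). The log2 fold change of SARS was -0.39 (SE 0.04, limma, adjusted p = 0.00291), and that of NARS was -0.38 (SE 0.04, limma, adjusted p = 0.00245). These 3 calls held in all 16 other fits, those without 1 library included. SARS and NARS are the only genes in their loci in the deposited table.

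WARS, the tryptophan enzyme, which is also known as an interferon-induced gene, had the highest level of the family. It was at 212, 227 and 262 FPKM in the knockdown and at 289.7, 300.1 and 290.1 FPKM in the control libraries (log2 fold change -0.33, SE 0.07, limma, adjusted p = 0.0273). RBM47 knockdown replicate 3 was the nearest to the control, and WARS lost its call with quantile normalization (0.0835). The same library stood nearest to the control in GARS, the glycine enzyme, with 134, 123 and 145 FPKM in the knockdown and 162, 162 and 163 FPKM in the control libraries. GARS had a log2 fold change of -0.28 (SE 0.06, limma, adjusted p = 0.0248). Of the fits without 1 library, the calls of WARS and GARS held only without RBM47 knockdown replicate 3 (adjusted p = 0.00722 and 0.0128). In the other 5 of these fits the adjusted p was 0.0710 to 0.102 for WARS and 0.0686 to 0.0823 for GARS.

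VARS, CARS and FARSA, the genes of the valine and cysteine enzymes and of the alpha subunit of the phenylalanine enzyme, also fell. CARS was the tightest of them, at 35.4, 34.9 and 36.1 FPKM in the knockdown and 42.5, 42.0 and 42.0 FPKM in the control libraries (log2 fold change -0.24, SE 0.04, limma, adjusted p = 0.0135). VARS was at 46.9, 44.5 and 44.8 FPKM in the knockdown and 59.0, 51.2 and 56.8 FPKM in the control libraries (-0.29, SE 0.06, limma, adjusted p = 0.0244). FARSA was at 29.3, 28.5 and 24.98 FPKM in the knockdown and 34.4, 32.4 and 34.6 FPKM in the control libraries (-0.29, SE 0.07, limma, adjusted p = 0.0376). None of the 3 genes overlapped between groups. CARS missed the threshold when RBM47 knockdown replicate 2 or control knockdown replicate 3 was left out (0.0526 to 0.0595). VARS kept it only without control replicate 2 (0.0244), with 0.0527 to 0.0888 without any other library, and FARSA lost it without any 1 of the 6 libraries (0.0516 to 0.121).

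The partner subunit of FARSA behaved differently in value. FARSB, the beta subunit of the same enzyme, was at 34.0, 32.0 and 33.0 FPKM in the knockdown and 34.0, 33.3 and 34.4 FPKM in the control libraries, and its groups overlapped. Its log2 fold change was -0.04 with a 95% interval of -0.15 to 0.07 (limma, adjusted p = 0.645). The difference between the subunits was not tested.

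Of the remaining enzymes outside the complex, the threonine enzyme TARS and the tyrosine enzyme YARS did not pass the threshold. TARS was at 171, 166 and 176 FPKM in the knockdown and 208, 193 and 185 FPKM in the control libraries, without overlap (log2 fold change -0.19, limma, adjusted p = 0.0612). YARS was at 73.1, 71.6 and 77.7 FPKM in the knockdown and 93.2, 77.6 and 84.0 FPKM in the control libraries, with a narrow overlap (-0.19, limma, adjusted p = 0.126). HARS, the histidine enzyme, was the single cytosolic gene whose knockdown values all lay above its control values. It was at 44.5, 43.4 and 44.3 FPKM in the knockdown and 37.9, 40.9 and 39.9 FPKM in the control libraries (log2 fold change 0.15, SE 0.05, limma, adjusted p = 0.0801). It was called higher with libraries scaled to the same total or by quantiles. Together, 8 of the 12 genes of enzymes outside the complex were lower and none higher. Of all tested genes 6.34% were lower and 5.10% higher. The median log2 fold change of the 12 was -0.29.

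Among the 8 enzymes of the multisynthetase complex, MARS alone passed, as lower. That is a share of 12.5%, where 6.34% of all tested genes were lower and 11.4% passed in either direction. In 3 of the 8 all knockdown values lay under all control values, as in 16.8% of all tested genes. The median log2 fold change of the 8 was 0.00021. MARS, the methionine enzyme, had 131, 119 and 120.0 FPKM in the knockdown and 146, 140.3 and 142 FPKM in the control libraries. There was no overlap (log2 fold change -0.21, SE 0.05, limma, adjusted p = 0.0374). MARS shares its locus entry on chromosome 12 with 6 other genes, among them DDIT3, the gene of the stress factor CHOP, which fell by 1.13 on the log2 scale. Fragments of overlapping genes may not have been separated. That limit also holds for the other members that share a locus entry, WARS, GARS and YARS2 among them. The call of MARS was also lost with libraries scaled to the same total or by quantiles. Of the fits without 1 library it held only without RBM47 knockdown replicate 1 (adjusted p = 0.0279), with 0.0831 to 0.128 in the other 5.

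The other 7 enzymes of the complex fell into 2 with negative values and 5 near or above 0. EPRS, which charges both glutamate and proline, was at 91.1, 85.5 and 99.3 FPKM in the knockdown and 112, 111 and 99.6 FPKM in the control libraries (log2 fold change -0.22, limma, adjusted p = 0.0800). IARS, the isoleucine enzyme, was at 118, 119 and 133 FPKM in the knockdown and 143, 149 and 131 FPKM in the control libraries (-0.19, limma, adjusted p = 0.0993). In both genes RBM47 knockdown replicate 3 was the highest knockdown library and control replicate 3 the lowest control library, with an overlap in IARS and none in EPRS. RARS, LARS, KARS and DARS, the enzymes for arginine, leucine, lysine and aspartate, had log2 fold changes of -0.03, 0.03, 0.03 and 0.06. Their 95% intervals all lay between -0.13 and 0.18, so that a decrease of the size seen for AARS was outside each of them. QARS, the glutamine enzyme, was at 126, 133 and 109 FPKM in the knockdown and 106, 113 and 115 FPKM in the control libraries, with overlapping groups (0.13, limma, adjusted p = 0.301).

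Of the 3 scaffold proteins of the complex, AIMP2 fell. It was at 14.6, 13.6 and 13.6 FPKM in the knockdown and 17.2, 16.8 and 16.4 FPKM in the control libraries, without overlap (log2 fold change -0.25, SE 0.06, limma, adjusted p = 0.0305). Of the fits without 1 library the call held only without RBM47 knockdown replicate 1 (0.0490), with 0.0688 to 0.106 in the other 5. AIMP1 was at 38.7, 40.7 and 46.7 FPKM in the knockdown and 44.6, 47.1 and 52.4 FPKM in the control libraries (-0.19, limma, adjusted p = 0.192). EEF1E1, also known as AIMP3, was at 36.1, 37.3 and 41.5 FPKM in the knockdown and 37.2, 39.3 and 43.0 FPKM in the control libraries (-0.06, limma, adjusted p = 0.655). The groups of AIMP1 and EEF1E1 overlapped.

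Cytosolic transcripts were more abundant than mitochondrial ones. Their median level over the 6 libraries was 104 FPKM, with a range over genes of 30.7 for FARSA to 263 for WARS. Mitochondrial genes had a median of 10.04 FPKM and a range of 4.30 for AARS2 to 48.8 for IARS2. Of the 10 cytosolic genes with the highest control level 6 were called lower, and of the other 10 genes 3 were. Of all tested genes 6.34% were. The median level of all tested genes was 12.4 FPKM, and the shares of all tested genes given here were not matched for level. At a minimum mean of 5 FPKM, 981 of 10458 tested genes were called lower. Across the 20 cytosolic genes Spearman's rho between control level and log2 fold change was -0.42, a description over genes that share the same 6 libraries. The SE of the log2 fold change ran from 0.05 to 0.12 for mitochondrial genes and from 0.04 to 0.08 for cytosolic genes.

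**Figure D2:**
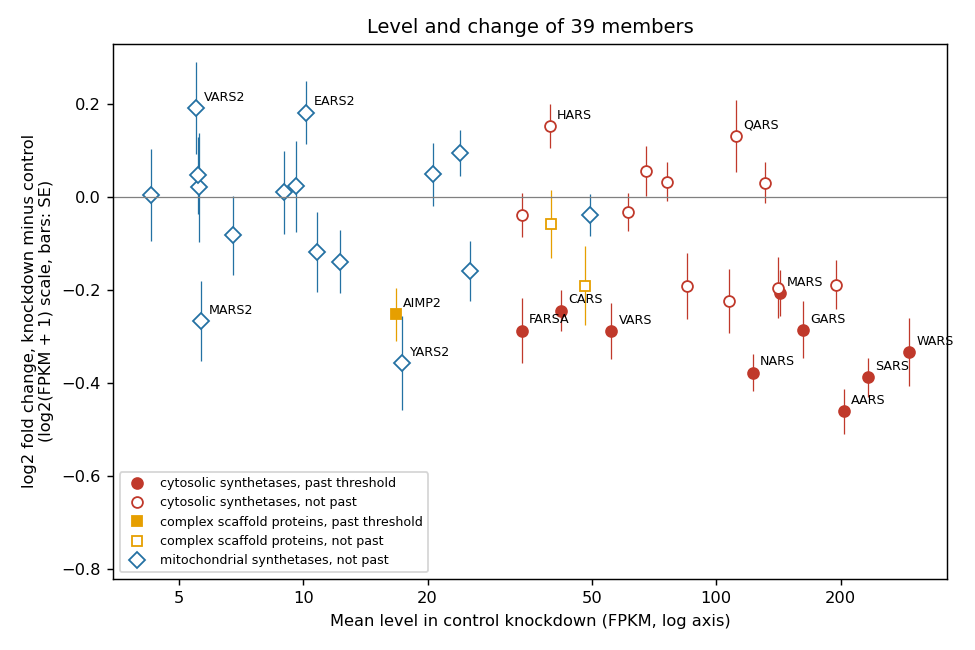
Log2 fold change (knockdown minus control, log2(FPKM + 1) scale, bars for the SE) against the mean control level in FPKM on a log axis for all 39 genes. Filled symbols passed the limma threshold: 9 cytosolic genes and the scaffold gene AIMP2, and no mitochondrial gene. Of all tested genes 11.4% passed.

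None of the 16 mitochondrial synthetases passed limma over all genes. At an unadjusted p under 0.05 there were 3 lower genes and 1 higher gene, where 14.3% of all tested genes were lower and 14.1% higher at that threshold, so these counts were near the background. YARS2, the mitochondrial tyrosine enzyme, had the most negative value. It was at 14.05, 12.9 and 12.8 FPKM in the knockdown and 19.0, 18.4 and 14.6 FPKM in the control libraries (log2 fold change -0.36, SE 0.10, limma, adjusted p = 0.0616). Control replicate 3 stood nearest to the knockdown, and without it YARS2 was called lower (0.0249). YARS2 was also called at a minimum mean of 5 FPKM. MARS2, the methionine enzyme, was at 4.38, 5.02 and 4.25 FPKM in the knockdown and 5.47, 5.76 and 5.74 FPKM in the control libraries (-0.27, limma, adjusted p = 0.0899). NARS2, the asparagine enzyme, was at 22.2, 21.0 and 24.6 FPKM in the knockdown and 25.2, 25.5 and 25.2 FPKM in the control libraries (-0.16, limma, adjusted p = 0.160). These 3 genes and RARS2 were the 4 of 16 whose knockdown values all lay under the control values, as did those of 16.8% of all tested genes.

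A further 3 of the 16, EARS2, VARS2 and HARS2, had knockdown values that all lay above the control values, a share near the 17.3% of all tested genes. EARS2, the glutamate enzyme, was at 12.4, 11.1 and 11.5 FPKM in the knockdown and 9.98, 9.89 and 10.6 FPKM in the control libraries (log2 fold change 0.18, limma, adjusted p = 0.126). VARS2, the valine enzyme, was at 7.44, 6.23 and 5.75 FPKM in the knockdown and 5.64, 5.28 and 5.62 FPKM in the control libraries (0.19, limma, adjusted p = 0.246). HARS2, the histidine enzyme, was at 26.6, 25.4 and 25.1 FPKM in the knockdown and 23.5, 24.0 and 24.4 FPKM in the control libraries (0.10, limma, adjusted p = 0.257). The remaining 9, AARS2, CARS2, FARS2, IARS2, LARS2, PARS2, SARS2, TARS2 and WARS2, overlapped between groups. The 95% intervals of 7 of the 16 genes (EARS2, HARS2, IARS2, PARS2, TARS2, VARS2 and WARS2) lay wholly above the cytosolic median of -0.20. The intervals of the other 9 held that value, so a decrease of that size was within the error for them.

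HARS and HARS2 are neighbours as well as counterparts. In RefSeq (GRCh38.p14) their transcripts start on opposite strands of chromosome 5, at 140691370 for HARS and 140691455 for HARS2, 85 bases apart. In the deposited table they share a locus entry with 3 other genes. Their log2 fold changes were 0.15 and 0.10, and the HARS to HARS2 ratio was 1.68, 1.71 and 1.77 in the knockdown and 1.61, 1.70 and 1.63 in the control libraries. The ratio thus overlapped between groups.

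Set against the enzyme for the same amino acid in the other compartment, the cytosolic transcript was always the more abundant one. The mean cytosolic to mitochondrial FPKM ratio in control libraries ran from 1.65 for histidine to 47.7 for alanine. Of 16 such pairs, 2 of which share EPRS, 7 had a lower ratio in every knockdown library than in any control library, and 1 had a higher one. The 7 were the pairs for alanine, glutamate, phenylalanine, asparagine, serine, valine and tryptophan. The AARS to AARS2 ratio was 32.7, 32.4 and 38.2 in the knockdown and 46.3, 43.5 and 53.2 in the control libraries. The WARS to WARS2 ratio was 25.9, 25.4 and 25.9 in the knockdown and 31.1, 32.3 and 34.9 in the control libraries. The arginine pair went the other way, with a RARS to RARS2 ratio of 5.65, 5.28 and 5.28 in the knockdown and 5.23, 4.81 and 4.89 in the control libraries. Where the mitochondrial enzyme lay under its control values in every knockdown library, the ratio overlapped for methionine and tyrosine. It was lower for asparagine and higher for arginine. Ratios were described over libraries and not tested, and the same share over other gene pairs was not computed.

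**Figure D3:**
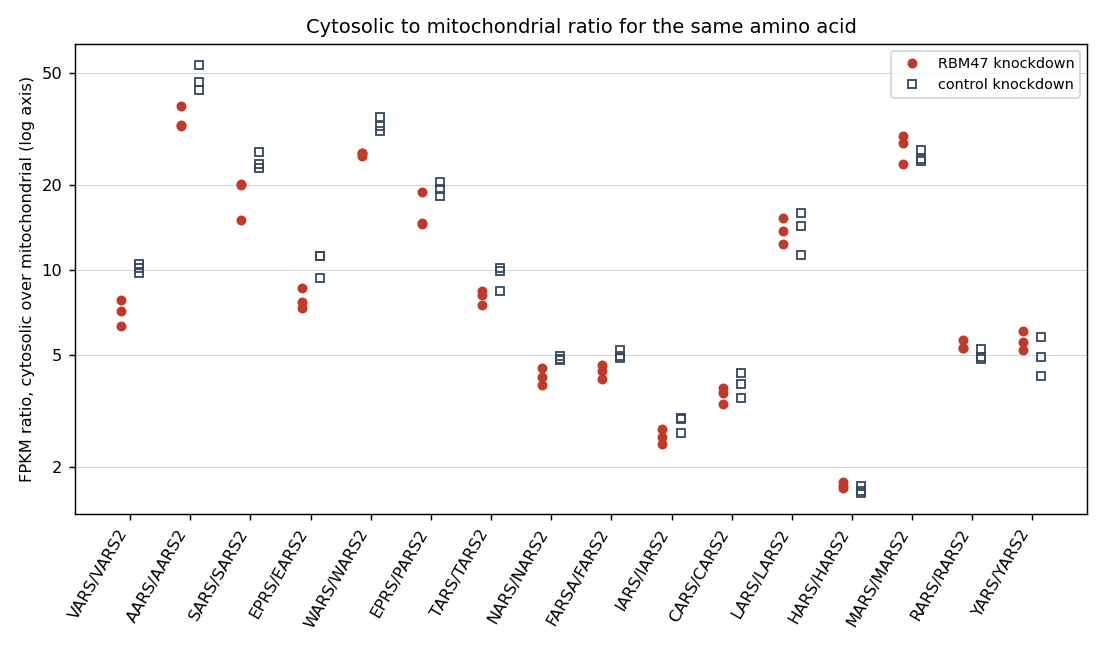
Ratio of the cytosolic to the mitochondrial FPKM for the same amino acid on a log axis, with a point for each library (circles, RBM47 knockdown; squares, control knockdown), ordered by the difference. For alanine the ratio is 32.4 to 38.2 in the knockdown and 43.5 to 53.2 in the control libraries, whereas for histidine, leucine and tyrosine the groups overlap.

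ATF4 acts with C/EBP proteins on a composite element whose core is often written TGATGNAA, and promoter windows of the members were searched for it. Each window held 250 bases before and 50 bases after a RefSeq start (GRCh38.p14), and both strands were read. The stricter form TGATGCAA is contained in the first. Of the 20 cytosolic genes 16 had a window in the table (DARS, LARS, VARS and YARS did not). TGATGNAA was found in 7 of the 16, against 3.60% of all 15843 protein-coding genes with a window, and TGATGCAA was found in 6 of them, against 0.903%. The matches are shown because the cytosolic genes that hold them can be read against the fold changes above. Each stretch is printed in the gene's own reading direction, with capitals for the element and 11 bases on each side. TTGCATCA and TTTCATCA are the element as it reads from the opposite strand. NARS alone holds it as TGATGCAA in the direction of the gene.
AARS: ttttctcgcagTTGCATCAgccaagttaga
CARS: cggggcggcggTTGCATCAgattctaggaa
IARS: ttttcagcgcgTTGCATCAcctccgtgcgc
MARS: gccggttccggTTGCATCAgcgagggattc
NARS: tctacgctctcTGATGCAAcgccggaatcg
TARS: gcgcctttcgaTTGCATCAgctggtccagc
GARS: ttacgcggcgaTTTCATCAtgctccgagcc

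Counted from the RefSeq start as base 1, with the base before it as -1, the element began at -187 in AARS, -33 in GARS, -13 in IARS, -4 in MARS, -2 in CARS, 3 in TARS and 15 in NARS. The printed stretches are chr16:70289675-70289704 (minus strand) for AARS, chr11:3057407-3057436 (minus) for CARS and chr9:92293692-92293721 (minus) for IARS. Those of MARS, NARS, TARS and GARS are chr12:57488053-57488082 (plus), chr18:57621804-57621833 (minus), chr5:33440956-33440985 (plus) and chr7:30594834-30594863 (plus). Of the 7 genes with TGATGNAA, 5 were called lower and all 7 had a negative log2 fold change, with a median of -0.24. Of the 9 genes without it, 3 were called lower (SARS, WARS and FARSA) and 6 had a negative value, with a median of -0.04. The medians lay closer together for the stricter TGATGCAA, which leaves GARS among the genes without the element. Of the 6 genes with TGATGCAA 4 were called lower (median -0.22), and of the 10 without it 4 were (median -0.13). Of all tested genes 6.34% were called lower and 48.8% had a negative value. These shares were not computed for all genes that hold the element, and the difference between genes with and without it was not tested. Among 14 mitochondrial genes with a window (AARS2 and VARS2 had none), none held TGATGCAA, and YARS2 held the form TGATGGAA from base -197. None of the 3 scaffold genes held either form. A match in a window is a description of its letters and not evidence of binding, and a window without one says nothing of sites elsewhere.

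**Figure D4:**
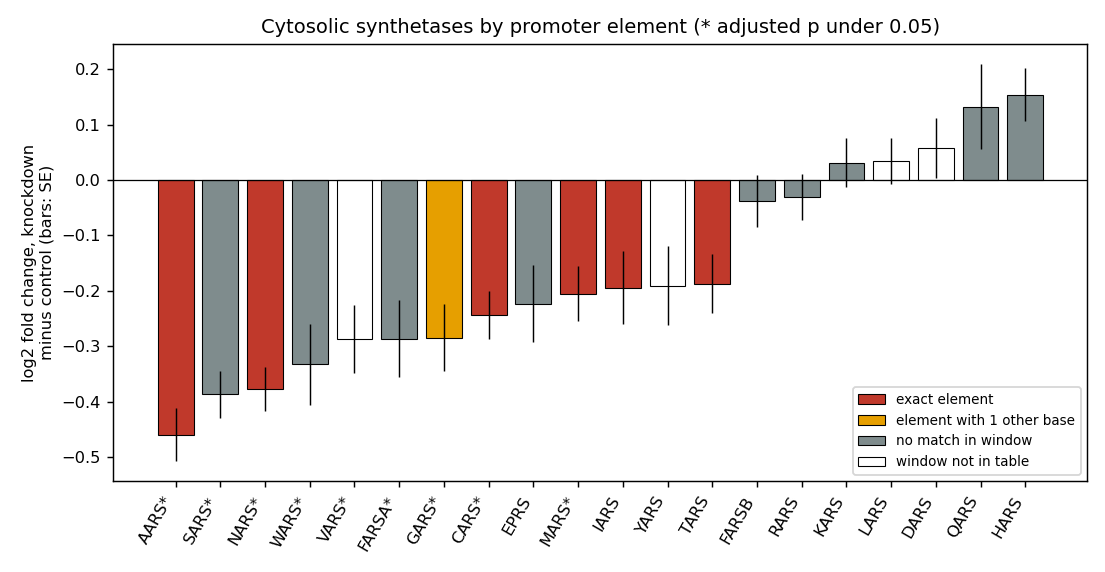
Log2 fold changes (knockdown minus control, bars for the SE) of the 20 cytosolic synthetase genes, ordered by value and shaded by whether the RefSeq promoter window holds the ATF4 element exactly (6 genes), with 1 other base (GARS), not at all (9 genes), or is not in the table (4 genes). All 7 genes with the element lie under 0, as do 6 of the 9 without it and 48.8% of all tested genes.

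A list of 12 cytosolic synthetases that are often named as ATF4 targets held 7 lower genes and a median log2 fold change of -0.23, where 6.34% of all tested genes were lower. Among the other 8 cytosolic genes 2 were lower, FARSA and VARS, and the median was 0.00021. Beyond the synthetases, 24 of 35 tested genes of the ATF4 and amino acid response were lower and none higher, with a median of -0.32, against the same 6.34% lower and 5.10% higher of all tested genes. The largest decreases were -1.13 for DDIT3, -0.93 for TRIB3, a pseudokinase induced by ATF4, -0.86 for SLC7A11, which imports cystine, and -0.80 for CTH, which makes cysteine. ATF4 itself was at 352 ± 13.1 FPKM in the knockdown and 388 ± 5.06 FPKM in the control (SD, n = 3 each) and did not pass the threshold (-0.14, limma, adjusted p = 0.0703). Its knockdown values all lay under its control values, as did those of 16.8% of all tested genes. This direction of the ATF4 genes was known before the synthetases were chosen, so it is no independent support for theirs.

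Upstream of ATF4, 1 eIF2 alpha kinase gene was called higher and 1 lower. EIF2AK4, the gene of GCN2, which senses uncharged tRNA, was at 27.3, 29.7 and 30.1 FPKM in the knockdown and 24.5, 23.0 and 22.8 FPKM in the control libraries. All knockdown values lay above the control values (log2 fold change 0.30, SE 0.06, limma, adjusted p = 0.0197). EIF2AK3, the gene of the endoplasmic reticulum kinase PERK, was at 19.6, 19.8 and 18.5 FPKM in the knockdown and 27.8, 22.7 and 22.9 FPKM in the control libraries (-0.32, limma, adjusted p = 0.0478). PPP1R15A, which encodes GADD34, the inducible regulator that reverses eIF2 alpha phosphorylation, fell by 0.70 on the log2 scale (limma, adjusted p = 0.00187). Of 10 genes in this list 2 were lower and 1 higher, against 6.34% and 5.10% of all tested genes. EIF2AK3 lost its call without any 1 of the 6 libraries (0.0739 to 0.115). EIF2AK4 kept it only without RBM47 knockdown replicate 1 or control replicate 1, with 0.0501 to 0.0780 otherwise.

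In 3 lists for other steps of charging and translation no gene was called, where 11.4% of all tested genes were. Whether counts of 0 in lists of this length fall below that share was not tested. None of 26 genes of tRNA maturation, export and proofreading passed (median log2 fold change -0.05), nor did any of 6 elongation factor genes (0.06) or any of 18 mitochondrial translation factors (0.02). XPOT, the tRNA exporter, was at 99.0 ± 8.06 FPKM in the knockdown and 113 ± 4.99 FPKM in the control (SD, n = 3 each; -0.19, limma, adjusted p = 0.107). The knockdown values of XPOT all lay under its control values, as in 16.8% of all tested genes. EEF1A1, which delivers charged tRNA to the ribosome, had all knockdown values above all control values but did not pass (0.17, limma, adjusted p = 0.0678). The same held for EEF1G (0.18, limma, adjusted p = 0.0666). Knockdown values all lay above the control values in 3 of the 6 elongation factor genes and under them in 1, against 17.3% and 16.8% of all tested genes. TUFM, the mitochondrial counterpart of EEF1A1, was at 94.1 ± 4.85 FPKM in the knockdown and 92.8 ± 4.96 FPKM in the control (0.02, limma, adjusted p = 0.856).

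**Figure D5:**
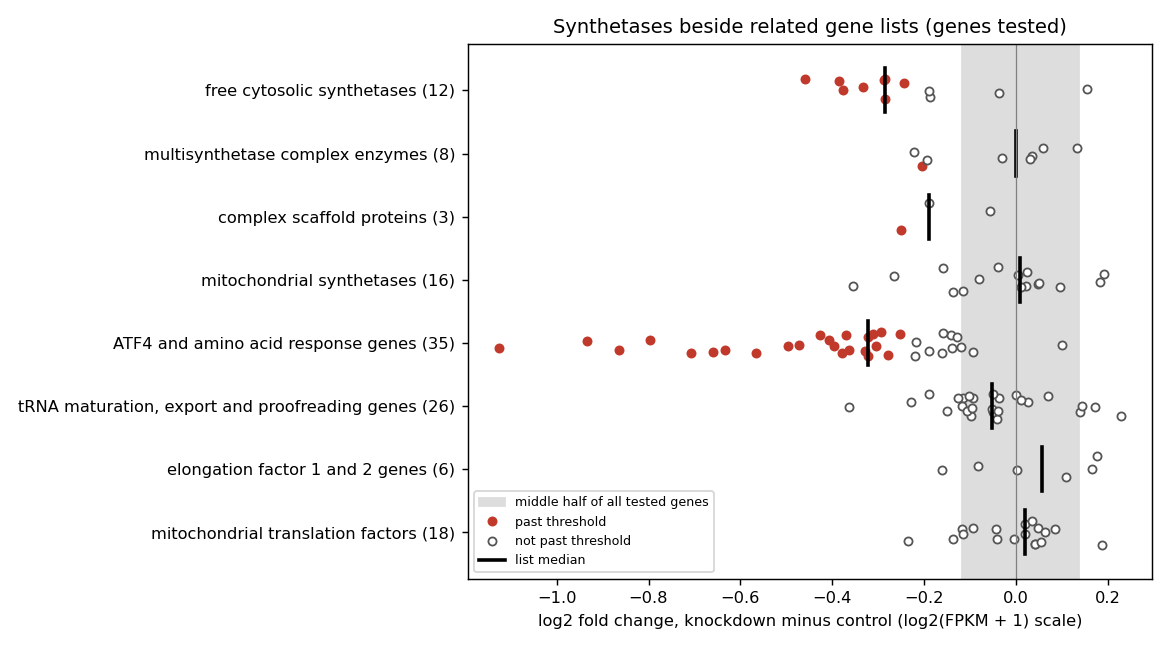
Log2 fold changes (knockdown minus control) of the synthetase groups and of related gene lists, with a point for each tested gene, filled where it passed the limma threshold, a black bar for the list median and grey for the middle range (25th to 75th percentile) of all tested genes. The medians of free cytosolic synthetases (-0.29, 8 of 12 lower) and of ATF4 genes (-0.32, 24 of 35 lower) lie left of the grey range. Of all tested genes 6.34% were lower. The medians of complex enzymes, mitochondrial synthetases and mitochondrial translation factors lie at 0.00021, 0.0081 and 0.02.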

How the data were processed

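The authors deposited a table of FPKM per gene for 6 libraries, made from stranded mRNA libraries per the labels' protocols. Cuffdiff 2.2.0, TopHat 1.4.1 and hg19 are listed in the submitters' processing notes. The sources used here do not give how libraries were scaled or whether strand was used. Because FPKM are normalized, count models were not applied. Locus coordinates are those deposited (hg19), with starts counted from 1. There, 30 of the 39 genes share a locus with others, so overlapping fragments may be split between genes.

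The 14419 genes whose mean reached 1 FPKM entered limma 3.58.1 (R 4.3.3) as log2(FPKM + 1). Knockdown was set against control with a prior variance that follows the level, and p-values were adjusted by Benjamini-Hochberg over all of them. Fold changes on this scale understate changes of low genes. The steps were run on simulated data with noise drawn from the fitted model and changes larger than those of any member. That run checked the steps and not the recovery of changes of the members' size. Relative depth was the most frequent ratio to the first knockdown library among genes under 0.3 FPKM that are alone in their locus. Of these genes 23.4 to 26.5% lay at that ratio, which equals sequencing depth only if libraries were scaled by it. The p-values measure the spread between these libraries. The members and lists were chosen with earlier results of these data known. Named were RBM47, all members and, per related list, up to 4 called genes by size or up to 2 by level, and ATF4 was added after its values were seen. Alternatives were pseudocounts of 0.1 and 0.5, a minimum of 5 FPKM or none, 3 scalings (same total, same upper quartile, quantiles), a prior without trend, array weights, a block on the replicate number, and each library left out in turn. Windows came from RefSeq tables (GRCh38.p14), matched by symbol through the Ensembl identifier for 33 of the 39 genes. Figures used matplotlib 3.10.9 (Python 3.11.15).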

Additional observations from a re-analysis of the deposited data

How the results depend on the processing

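The cytosolic median stayed negative in every setting, at -0.24 to -0.17 without 1 library and -0.15 with quantile normalization, where the cytosolic minus mitochondrial median was -0.14 instead of -0.21 (-0.23 to -0.16 without 1 library). The count of lower cytosolic genes was 4 with no filter, 4 in limma without trend and 3 to 7 without 1 library, while calls over all genes numbered 916 with no filter and 630 to 1255 without 1 library. With no filter more genes are tested and the prior variance is also fitted over all of them, and without a library fewer samples are used. Which of these changed the counts was not tested, nor was the cause for the other settings. The mitochondrial median was -0.036 to 0.0043 without 1 library. The count of lower mitochondrial genes was 1 at a minimum of 5 FPKM and 0 to 1 without 1 library, and no setting called a mitochondrial gene higher. With the replicate number as a block, 4 cytosolic genes and 837 genes in all were called. The labels do not pair the samples beyond the number, and same-numbered libraries had correlations of deviations of 0.019, -0.096 and 0.077, so the block stands only as a check. The sign of 6 members near 0 changed. With quantile normalization RARS was at 0.015, AARS2 at -0.039 and LARS2 at -0.017, and with array weights LARS2 was at -0.023 and WARS2 at -0.00014. Without 1 library AARS2 ran from -0.047 to 0.070, LARS2 from -0.069 to 0.13, SARS2 from -0.078 to 0.084, TARS2 from -0.0088 to 0.097 and WARS2 from -0.060 to 0.074. Leaving GARS and KARS, which serve both compartments, out of the cytosolic class gave 8 of 18 lower genes and the same median. The number of fragments behind each value is unknown, so no counting error could be given.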
